A study of Homo sapiens with 4 samples.

Results

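The genes examined here act in oxidative protein folding in the endoplasmic reticulum (ER), and their RNA was measured in VCaP cells. They are the protein disulfide isomerase (PDI) genes and relatives P4HB, PDIA3, PDIA4, PDIA5, PDIA6, TXNDC5, ERP44 and ERP29, and the ER oxidase genes ERO1A and ERO1B. The list was matched by gene symbol to the Ensembl identifiers of the count tables, which gave 10 of 10 genes among 60308 in all. The genes were chosen by function and with the read counts of this same comparison, siZBTB7A against siNTC on the kit strand, already known, so their differences are a description and support nothing. VCaP cells come from a prostate cancer metastasis, carry a TMPRSS2-ERG fusion, and were kept in DMEM with fetal bovine serum. One group was transfected with a non-targeting control siRNA (siNTC) and the other with an siRNA against ZBTB7A (siZBTB7A), a zinc finger transcriptional repressor, and the series asks which genes ZBTB7A regulates. Each group has 2 tables of stranded total RNA-seq counts. The labels do not say whether the tables of a group come from separate cultures.

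Most secreted and surface proteins gain disulfide bonds in the ER. PDI enzymes pass a disulfide from a pair of active-site cysteines to the client protein, or rearrange wrong pairs, and ERO1 enzymes re-oxidise PDI with oxygen and release hydrogen peroxide. Several of these genes are known targets of the unfolded protein response, whose factors ATF6 and XBP1 bind short promoter elements, and ERO1A is also known to respond to hypoxia. Luminal prostate cells secrete large amounts of disulfide-bonded proteins such as the kallikreins.

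Within a group, the pair of tables could not be distinguished beyond sampling noise across genes, with chi-square per degree of freedom of 0.993 in siNTC and 0.995 in siZBTB7A, against 3.50 to 3.64 between tables of different groups. They were therefore counted as 1 library per group, and no value here measures the spread between cultures. Gene reads on the kit strand numbered 5556061 to 5927656 per table. ZBTB7A, the targeted gene, had 90 and 115 reads in siNTC and 70 and 74 in siZBTB7A, a fold of 0.743 (95% counting interval 0.596 to 0.924) that did not pass the test across all genes. Mitochondrially encoded genes took 17.1% of gene reads in both siNTC tables and 20.2% in both siZBTB7A tables. With these genes left out of the totals, the log2 folds of the family kept their direction and their side of the threshold, at -0.30 for ERO1A and 1.79 for TXNDC5. The scaling factors were recomputed in that fit and adjust for such a shift with or without these genes, so little change was possible. Any part of the mitochondrial share in the folds was not tested. All 9 VCaP markers, among them KLK2, ERG and HOXB13, were counted well enough to be tested. Leukocyte markers held 2 and 1 reads and endothelial markers 4 and 9 reads in the summed groups, with PTPRC, CD3E, CDH5 and LYZ at 0 or 1. Of the fibroblast markers LUM had 178 and 144 reads, COL1A2 had 0, and the other 3 had 0 to 6 per table.

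Short promoter elements were looked for because several of these genes are known targets of the unfolded protein response, whose factors bind such elements. The RefSeq table of starts (GRCh38.p14) held 12 promoters for 9 of the 10 genes, all but PDIA3, and the 250 bases before each start were searched on both strands. The ER stress response element, CCAAT and CCACG with any 9 bases between them, was found in 26 of 35116 promoters (0.074%), and 2 of them belong to PDIA6 and ERO1B. The unfolded protein response element TGACGTGG was found in 215 promoters (0.612%), of which 1 belongs to TXNDC5. The stretches around these matches are given 5′ to 3′ on the gene's strand, with the matched element in capitals. They lie outside annotated exons.
PDIA6, chr2:10812845-10812931, minus strand: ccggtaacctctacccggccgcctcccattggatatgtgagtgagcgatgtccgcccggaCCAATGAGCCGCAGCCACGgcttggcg
ERO1B, chr1:236282123-236282208, minus strand: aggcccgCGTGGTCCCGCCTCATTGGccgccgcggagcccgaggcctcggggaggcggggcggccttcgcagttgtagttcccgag
TXNDC5, chr6:7910102-7910229, minus strand: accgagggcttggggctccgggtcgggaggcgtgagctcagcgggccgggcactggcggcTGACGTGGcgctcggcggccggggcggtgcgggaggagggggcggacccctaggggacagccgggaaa

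The PDIA6 element lies 86 to 68 bases before a start of PDIA6 and runs with the gene. The ERO1B element lies 243 to 225 bases before the start and is on the opposite strand, so the capitals read as its reverse complement. The TXNDC5 element lies 92 to 85 bases before the second of 2 listed starts. The CCAAT box, which is also the left end of the ER stress response element, was found in 32.0% of all promoters. It was in those of 6 of the 9 genes, with 3 copies in the 250 bases before P4HB and also before a start of PDIA4. The core of the hypoxia response element, ACGTG, also lies inside TGACGTGG. It was in 18.5% of all promoters and in those of 6 of the 9 genes, including ERO1A (114 bases before the start) and ERP29. The 9 genes have 12 promoters, so these counts of genes are not directly comparable with 32.0% and 18.5% of promoters. ERP29 has matches at 7 strand-specific positions. Those at 112 and 111, 61 and 60, and 29 and 28 bases before the start are the 2 strands of the palindrome CACGTG. The variant element, ATTGG and CCACG with 1 base between them, and the amino acid response element TGATGCAAT were in the promoters of 0 of the 9 genes. GACCACC, a core shared by the binding motifs of the ZBTB7 factors, was in 2.42% of all promoters and in 1 of the 12 here, 22 bases before the same PDIA6 start. These are matches of letters and no binding was measured in these libraries.

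The genes spanned a wide range of levels. Per kilobase of annotated exon, in the siNTC library, P4HB stood at 189 CPM, reads scaled to a common library total, (counting interval 186 to 193), PDIA4 at 134 (130 to 137), PDIA6 at 88.6 (86.0 to 91.3), PDIA3 at 60.7 (58.5 to 62.9) and ERP29 at 42.3 (40.2 to 44.5). These 5 levels are separated from each other by more than counting error. A lower tier held ERP44 at 10.8 (9.95 to 11.7), PDIA5 at 7.94 (7.16 to 8.78) and ERO1A at 7.31 (6.76 to 7.90), and the intervals of PDIA5 and ERO1A overlap. ERO1B was lower again at 2.31 (1.95 to 2.71), and TXNDC5 came last at 0.386 (0.236 to 0.596) over all its annotated exon bases. Of these bases, 60.6% are shared with a readthrough gene on the same strand. Both genes are among those counted, and reads that fit both are counted for neither. This level of TXNDC5 may thus be too low by an unknown amount, and its rank is not secure. The counting interval does not cover such a loss. The top 4 genes made up 86.9% of the summed level in siNTC and 86.8% in siZBTB7A. Over all annotated exon bases, the order of the 10 genes was the same in both groups. With the longest transcript as the length, PDIA3 and ERP29 changed places, as did ERP44 and PDIA5.

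**Figure D1:**
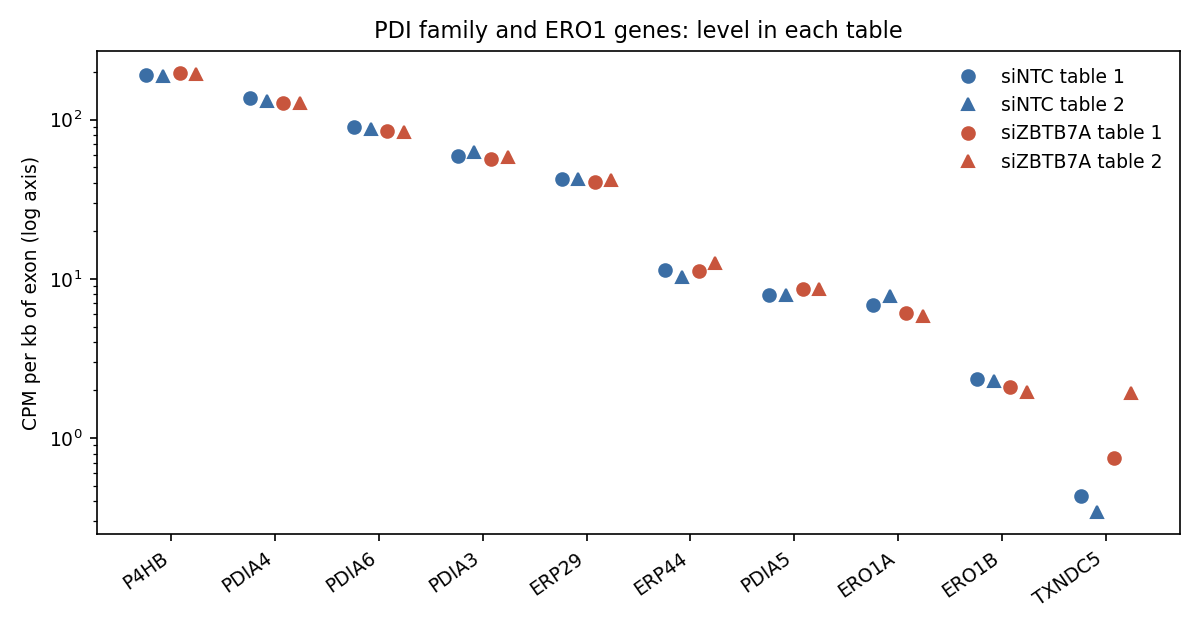
Level of each gene in each of the 4 tables, in CPM per kilobase of exon on a log axis; circles and triangles are the first and second tables of a group, blue siNTC and red siZBTB7A. Apart from TXNDC5, the points of a gene lie close together beside the range between genes, which runs from 189 for P4HB to 2.31 for ERO1B in siNTC.

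Between the groups, 8 of the 10 genes had folds between 0.877 and 1.10, ERO1A lay below that range and TXNDC5 above it, and the family did not share a direction. Across the 12848 genes tested (edgeR's quasi-likelihood test, Benjamini-Hochberg adjusted p under 0.05), 2.72% were lower and 2.25% higher in the siZBTB7A library. In either direction the share was 4.97%. All 10 family genes entered the test, and 1 was lower, ERO1A, and 1 higher, TXNDC5. The counting interval of the fold lay below 1 for 3 of the 10 (8.52% of all genes) and above 1 for 2 (8.54%). The median fold of the 10 was 0.961, beside 1.001 over all genes tested, and 6 of the 10 had a fold below 1, beside 49.8% of all genes. Both siZBTB7A tables lay below both siNTC tables for 6 of the 10 genes and above them for 3, where 23.4% and 23.5% of all genes did so. With folds corrected for GC content and length, 1.41% of all genes were lower and 1.46% higher, and 1 family gene was in each set, PDIA4 and TXNDC5. A first form of that correction, weighted by counts alone, called 605 genes higher and 261 lower, beside 289 and 350 without correction, and its family genes were PDIA6, lower, and TXNDC5, higher. Nothing is read from these counts, since the genes were chosen with this contrast known.

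Of the oxidases, ERO1A, the widely expressed form, had 298 and 354 reads in siNTC and 253 and 249 in siZBTB7A. That is 51.3 and 59.0 CPM against 46.1 and 43.9 CPM, and the groups do not overlap. The fold was 0.815 (0.724 to 0.917), the furthest below 1 in the family. Each fit without 1 table has fewer reads, so a lost call there need not mean that the call rests on that table. Without siNTC replicate 2, the higher control, the log2 fold of ERO1A was -0.19 in place of -0.30. Without siZBTB7A replicate 1 or 2 it was -0.33 and -0.26, close to the full value. ERO1A did not pass in these fits. It did not pass under either GC and length correction, at -0.24 in both forms. ERO1B, the form known best from secretory tissues such as the pancreas, had 73 and 73 reads in siNTC and 62 and 59 in siZBTB7A. Its fold of 0.877 had an interval of 0.683 to 1.12, which spans 1. The ERO1 genes together stood at 67.6 CPM in siNTC and 55.8 CPM in siZBTB7A.

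The abundant catalytic PDI genes stood close to the control. P4HB encodes PDI itself, which also serves as a subunit of collagen prolyl 4-hydroxylase and of the microsomal triglyceride transfer protein. It had 5828 and 6015 reads in siNTC and 5724 and 5781 in siZBTB7A, or 1003 and 1002 CPM against 1043 and 1019 CPM. Its fold was 1.028 (1.002 to 1.055), and its direction depends on the correction: 0.988 with the revised GC and length correction, but a log2 fold of 0.04, as without any, with the first form. PDIA4 (ERp72), a PDI with an additional catalytic domain, had 2611 and 2567 reads against 2294 and 2372, a fold of 0.954 (0.916 to 0.992). Its groups do not overlap, and among the settings tried it passed the test only with the revised GC and length correction, at a fold of 0.929. PDIA6 (P5), a partner of the chaperone HSPA5, had 2134 and 2160 reads against 1911 and 1950, a fold of 0.952 (0.911 to 0.994). It passed only with the first form of the correction, at a log2 fold of -0.13. PDIA3 (ERp57), which folds glycoproteins held by calnexin and calreticulin and takes part in loading of MHC class I, had 1457 and 1581 reads against 1324 and 1407. Its fold was 0.951 (0.903 to 1.002), and both siZBTB7A tables, at 241 and 248 CPM, lay below both siNTC tables, at 251 and 263 CPM. Without correction none of PDIA4, PDIA6 and PDIA3 passed the test.

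**Figure D2:**
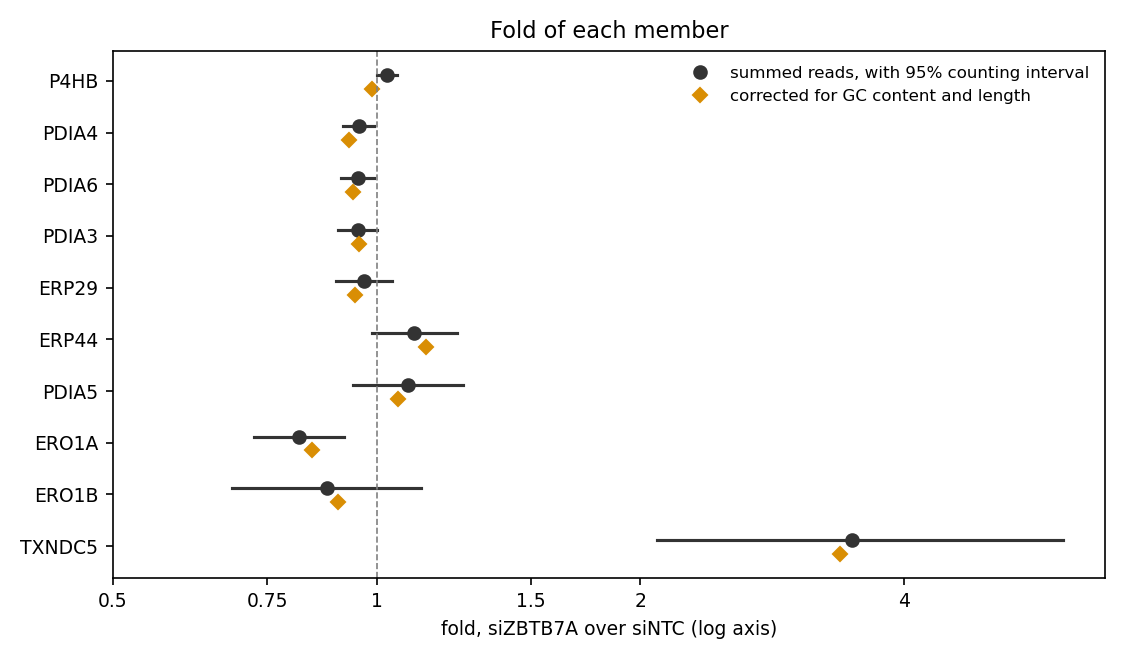
Fold of each gene, siZBTB7A over siNTC, on a log axis: black points with lines are the summed reads with their 95% counting interval, and orange diamonds the fold after the revised correction for GC content and length. ERO1A sits at 0.815 and TXNDC5 at 3.49, while the other 8 genes lie between 0.877 and 1.10.

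The remaining, less abundant genes did not share a direction. PDIA5 (PDIR), a PDI with little known isomerase activity, had 186 and 192 reads in siNTC and 192 and 196 in siZBTB7A. Its tables do not overlap between the groups, and its fold was 1.09 (0.940 to 1.25). ERP44, which retains ERO1 and other clients in the early secretory pathway through mixed disulfides, had 320 and 298 reads against 300 and 345. Its tables overlap between the groups, with a fold of 1.10 (0.988 to 1.24). ERP29, a PDI relative without the catalytic cysteine pair, had 763 and 778 reads against 681 and 728. Its fold was 0.968 (0.900 to 1.041), and none of these 3 genes passed the test.

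TXNDC5 (ERp46) was the exception in size, and its value is the least secure. TXNDC5 had 11 and 9 reads in siNTC and 18 and 48 in siZBTB7A, where it reached 3.28 and 8.46 CPM. The summed fold was 3.49 (2.09 to 6.08). The siZBTB7A tables, which otherwise agree within sampling noise, differ 2.67-fold in reads for TXNDC5. By its share of the chi-square between these tables it ranked 7th from the largest of 12645 genes. Without siZBTB7A replicate 2 the log2 fold was 0.94 in place of 1.79 and the gene did not pass the test. TXNDC5 also met the low-count limit of 1.74 CPM in both siZBTB7A tables but in only 1 of the siNTC tables, so it entered the test mainly through the group in which it was high.

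**Figure D3:**
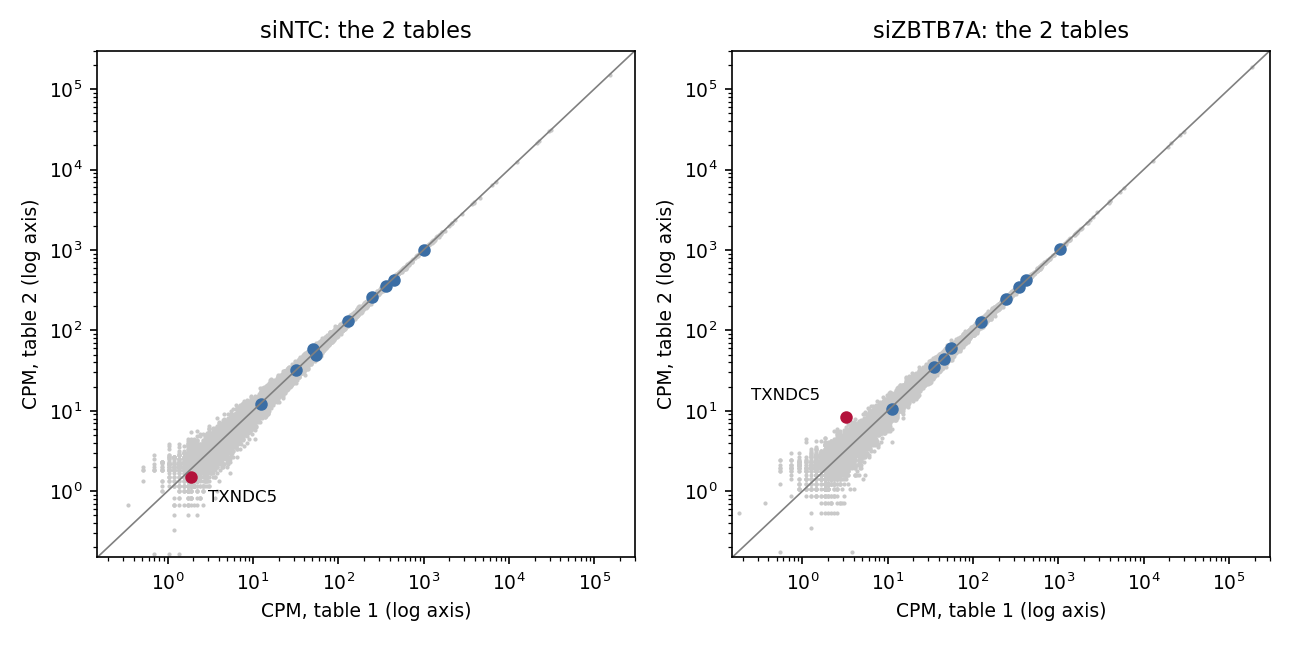
CPM of every gene tested in the first against the second table of the same group, on log axes, with the family in blue and TXNDC5 in red; the line marks equality. In siNTC all family genes lie along the line, and in siZBTB7A TXNDC5 lies off it at 3.28 and 8.46 CPM.

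The count of TXNDC5 also depends on the annotation. In GENCODE 29, the readthrough gene BLOC1S5-TXNDC5 on the same strand shares 2658 of the 4387 exon bases of TXNDC5 (60.6%). The annotation used for the counts lists both genes, and reads that fit both are counted for neither. BLOC1S5-TXNDC5 had 0 reads in all 4 tables, so adding it to TXNDC5 left the value as it was. Over the 1729 exon bases that TXNDC5 holds alone, its level in siNTC was 0.979 CPM per kilobase, below ERO1B at 2.31. In siZBTB7A it was 3.42 over these bases, above ERO1B at 2.02, so on this length the order of these genes differed between the groups. PDIA5 shares 576 exon bases (14.3%) with genes on its own strand, mainly SEC22A, and stood at 9.27 CPM per kilobase over the rest.

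Some genes of the family lost reads when strand was ignored. The loss did not simply follow the share of exon bases covered by genes on the opposite strand. Whether those genes account for the lost reads was not tested, and the overlaps may differ from the annotation used for the counts. Of 10893 genes with at least 100 reads, 1208 (11.1%) had an unstranded count below 90% of the kit-strand count. In the family this held for P4HB, PDIA3 and PDIA6, 3 of the 9 genes with that many reads. PDIA6 kept 60.8% of its reads in siNTC and 60.7% in siZBTB7A, and ATP6V1C2 on the other strand covers 25.2% of its exon bases. P4HB kept 76.2% and 76.6%, and the antisense gene AC145207.3 covers 9.98% of its exon bases, although it had 0 reads of its own in every table. PDIA3 kept 86.6% and 84.5%, beside ELL3, AC018512.1 and CATSPER2P1, which together cover 18.9% of its exons. ERO1A kept 92.8% and 93.2%, with AL133453.1 over 7.70% of its exons. ERP29 lost next to nothing in the unstranded count (100.8% and 99.9%), though AC073575.2 covers 17.5% of its exon bases.

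**Figure D4:**
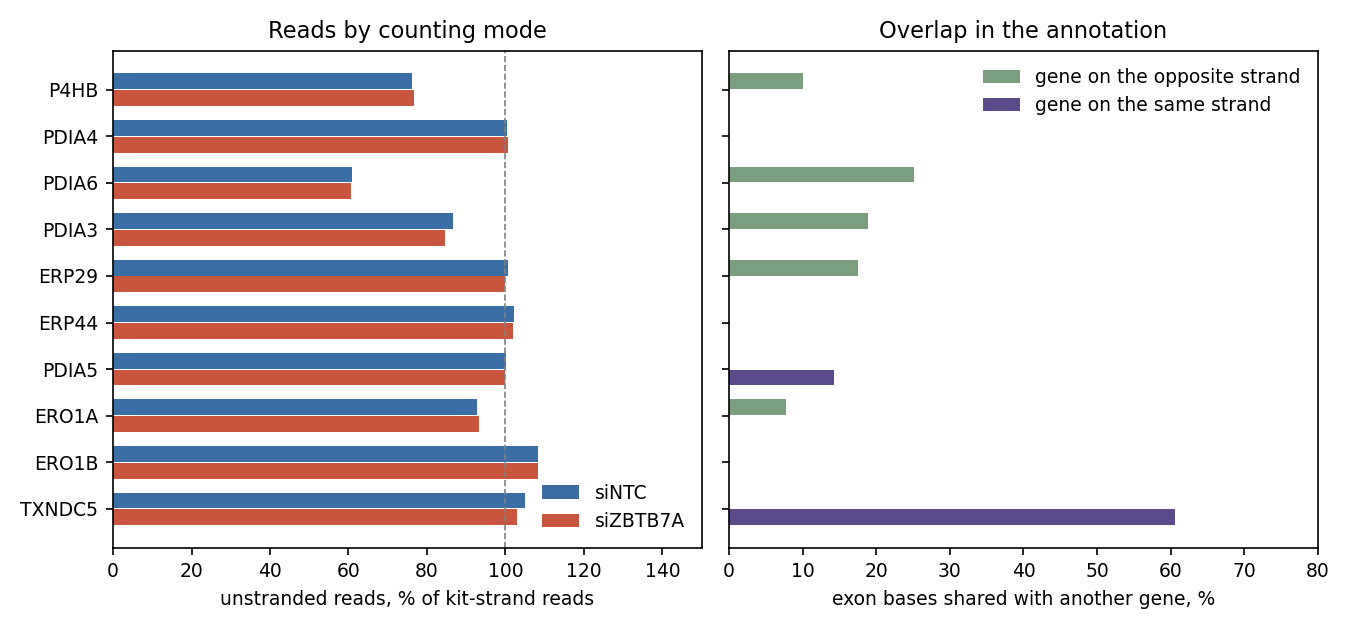
Left, unstranded reads of each gene as a percentage of its kit-strand reads, with siNTC in blue and siZBTB7A in red and a dashed line at 100%; right, the percentage of its exon bases shared with a gene on the opposite (green) or same (purple) strand. PDIA6 and P4HB lose the most reads without strand, and TXNDC5 shares 60.6% of its exon bases on its own strand.

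For PDIA6, P4HB and ERO1A the loss was alike in both groups, so their folds hardly moved with the counting mode. On unstranded counts the log2 fold was -0.07 for PDIA6, 0.05 for P4HB and -0.29 for ERO1A, beside -0.07, 0.04 and -0.30 on the kit strand. PDIA3 kept 86.6% of its reads in siNTC and 84.5% in siZBTB7A, and its log2 fold moved more, from -0.07 to -0.10. Reads on the other strand were few. They made up 0.150% (exact interval 0.104% to 0.208%) of the stranded reads of P4HB and 0.495% (0.367% to 0.654%) of those of PDIA4, where the median over genes was 0.498%. ERO1B had the highest share at 7.61% (4.83% to 11.3%), from 22 of 289 reads. PDIA3 has a processed pseudogene copy, PDIA3P1, which was looked up after the values were seen and held 9 to 15 reads per table; reads that map to both are left out of either count.

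Other genes of the pathway were taken from lists made for this comparison. None of 13 tested ER thioredoxin-fold relatives passed edgeR's test, where 4.97% of all genes did in either direction. Of these 13, 3 had an unadjusted p under 0.05 in that test, a share not computed over all genes. Limma-voom called 0, and DESeq2 called 0 and gave no adjusted p for 9. With the revised GC and length correction 1 of the 13 was called higher, beside 1.46% of all genes. Their median fold was 0.963. AGR2, a PDI relative abundant in secretory epithelium, was at 0.954 and the membrane-bound TMX1 at 1.003, and PDIA2, a further PDI, was at 1.82 (1.21 to 2.77) from 39 and 67 reads. Among 6 tested alternative oxidases and peroxidases, which can oxidise PDI or use the peroxide made by ERO1, 0 passed, beside 4.97% of all genes. Of these 6, 0 had an unadjusted p under 0.05 in edgeR's test and limma-voom called 0. DESeq2 called 0 and gave no adjusted p for 5. The median fold of the 6 was 1.069. PRDX4, the ER peroxiredoxin, was at 1.050 and QSOX2 at 1.09.

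Of 10 tested partners that work directly with PDI enzymes, 5 were lower and 0 higher, with a median fold of 0.956, where 2.72% of all genes were lower and 2.25% higher. DESeq2 called 2 of the 10, CANX and CALR, and gave no adjusted p for 4. The lectin chaperone genes CANX and CALR, which deliver glycoproteins to PDIA3, both had a log2 fold of -0.07, with fold intervals of 0.933 to 0.968 and 0.933 to 0.972. HSPA5, the partner of PDIA6, was at 0.874 (0.821 to 0.930), UGGT1, the folding sensor of the calnexin cycle, at 0.883 (0.825 to 0.946), and ITPR1, a calcium channel bound by ERP44, at 0.895 (0.842 to 0.951). P4HA1, a prolyl 4-hydroxylase subunit that pairs with P4HB, was at 0.961 and did not pass. The partners did not all lie below 1. UGGT2 was at 1.39 (1.05 to 1.85), TAPBP at 1.12 (1.01 to 1.24) and SUMF1 at 1.058. For UGGT2, TAPBP and SUMF1 both siZBTB7A tables lay above both siNTC tables, but none of them passed. P4HA2 was at 0.969 and did not pass. UGGT1 and ITPR1 passed under neither form of the GC and length correction. UGGT1 also did not pass in any of the 4 fits without 1 table, ITPR1 passed in 1 of them (without siNTC replicate 2), and CALR did not pass without siZBTB7A replicate 1, with log2 folds of the same sign throughout.

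ER chaperone and stress genes had a median fold of 0.914, with 2 of 18 lower and 0 higher, beside 2.72% and 2.25% of all genes. DESeq2 called 1 of the 18, HSP90B1, and gave no adjusted p for 11. The lower genes were HSP90B1, the ER form of HSP90, at 0.905 (0.882 to 0.927) and SDF2L1, an ER stress-induced cochaperone, at 0.775 (0.684 to 0.878). SDF2L1 did not pass without siNTC replicate 1 or without siZBTB7A replicate 1, at log2 folds of -0.31 and -0.32. The transcription factor genes of the response did not pass, with XBP1 at 1.010, ATF4 at 1.038, ATF6 at 0.900 and DDIT3 at 0.865 (0.740 to 1.010). Of 13 cytosolic thioredoxin and glutathione genes, 0 passed, beside 4.97% of all genes, and their median was 1.058. In edgeR's test 3 of them had an unadjusted p under 0.05, a share not computed over all genes. Limma-voom called 0, and DESeq2 called 0 and gave no adjusted p for 6. Of 9 tested genes listed as secreted or surface cargo of prostate cells, 4 were higher and 0 lower, beside 2.25% and 2.72% of all genes. Their median fold was 1.024, and the disulfide content of the proteins was not examined. DESeq2 called 3 of the 9, without KLK2, and gave no adjusted p for 2. The higher ones were IGFBP2 at 1.28 (1.22 to 1.34), THBS1 at 1.15 (1.12 to 1.19), FOLH1 at 1.16 (1.11 to 1.21) and KLK2 at 1.024 (1.010 to 1.037), the last of which turned to 0.999 with the revised correction and stayed above 1 with the first. Differences between these lists were not tested.

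**Figure D5:**
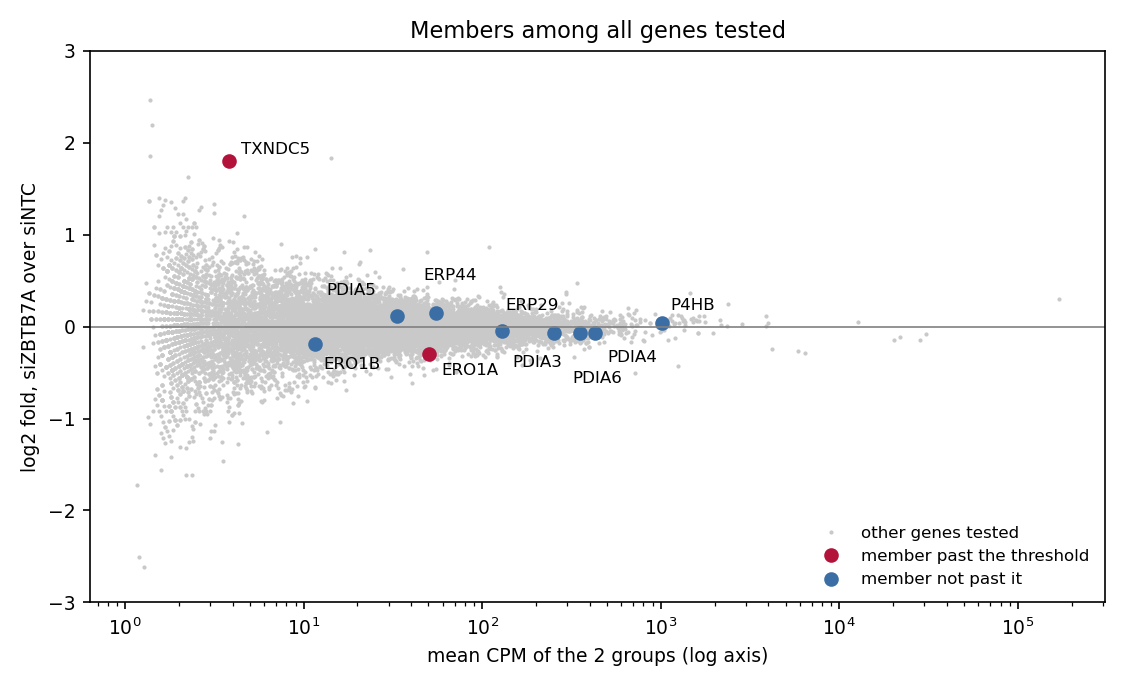
Log2 fold against mean CPM (log axis) for all 12848 genes tested in grey, with the 10 family genes as large points, red where past the threshold of the test. The family spans low to high abundance, and ERO1A and TXNDC5 are the red points.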

How the data were processed

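Per the submitters' processing notes, STAR 2.4.2a and the builds hg19 and GRCh37 were used. Which annotation release was used is not stated in the sources. The deposited values are whole-number read counts per gene, without normalization, in an unstranded column and a column for each strand. In this layout, reads that fit several genes or places are not counted. The kit strand was the column that exceeded the other by 24.9 to 25.5 times. The 4 rows that name no gene, 50.8% to 51.2% of reads, were left out. GENCODE 29 and its GRCh38 gene models gave names (55698 of 60308 identifiers), lengths and overlaps, so exon overlap may differ from the authors' annotation.

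The test was edgeR 4.0.16 (R 4.3.3) quasi-likelihood, robust, with TMM factors, filterByExpr and Benjamini-Hochberg adjustment at 0.05. It compares 2 libraries, not 2 conditions. Folds are of the summed tables scaled by TMM-adjusted gene reads, and CPM uses the same totals. Exact 95% intervals cover counting error only. Named genes were the 10 family genes, ZBTB7A, genes overlapping them, and called members of each list; other genes named as examples were chosen after their values were seen. Family, lists and motifs were chosen with earlier results of these data known. Alternatives included DESeq2 1.42.0, limma 3.58.1 voom, other filters and scalings, unstranded counts, protein-coding genes alone, the replicate block, leaving out each table, totals without mitochondrial genes, and a spline on GC content and length. That correction was first run with weights from counts alone and the trend centred on its weighted mean. After its calls were seen to be unbalanced it was revised to weights with a variance floor of 0.01 and no centring. Both forms are reported, and the revised form was thus chosen with its results in view. Further motif spellings were scanned and not kept. The fit was also run on simulated counts with set changes and sampling noise alone. Those counts held no spread between cultures, so that run cannot check the calls made here.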

Additional observations from a re-analysis of the deposited data

Results flagged for a closer look

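Reads outside annotated exons on the kit strand, which no comparison above uses, made up 23.15% of the siZBTB7A reads and 20.59% of the siNTC reads. The difference exceeds counting error in these libraries, and its part in the values of the PDI and ERO1 genes was not tested.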

How the results depend on the processing

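With 1 library per group, and 9 to 73 reads per siNTC table for TXNDC5 and ERO1B, depth limits what can be said of the low genes. The 639 genes called over the whole table became 114 with DESeq2, 369 with the revised GC and length correction (188 higher, 181 lower) and 303 to 373 without 1 of the 4 tables. DESeq2 called 0 of the 10 family genes lower and 0 higher, but gave no adjusted p for 5 of them, ERO1A and TXNDC5 among them, so it says nothing of those calls. Leaving out 1 table, with fewer reads in each fit, gave 0 to 1 family genes lower and 0 to 1 higher. In those fits ERO1A passed only without siNTC replicate 1, at a log2 fold of -0.39, and TXNDC5 in all but the fit without siZBTB7A replicate 2. The median log2 fold of the family was -0.058, and ranged from -0.066 to -0.0377 without 1 table.

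The form of the GC and length correction decides several calls. It was first run with weights from counts alone, and that form called 866 genes (605 higher, 261 lower). It was replaced after these unbalanced calls were seen, so the revised form was not chosen independently of its results. In the revised form P4HB turned from 0.04 to -0.0172 and KLK2 from 0.03 to -0.0013. In the first form both kept their direction, at 0.04 and 0.06. PDIA4 passed in the revised form alone and PDIA6 in the first form alone, while ERO1A passed in neither and TXNDC5 in both. The cause was not tested.

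The deviations of same-numbered tables correlated at -0.015, so the numbers were not taken as pairs. The fit with the replicate block called 654 genes, with ERO1A lower and TXNDC5 higher as before.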
